A study of Mus musculus with 15 samples.

Results

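Genes that drive DNA replication and cell division were followed in primary mouse chondrocytes, the cells that form cartilage, under 4 inhibitors. The 48 genes were chosen by name: 23 act at the start or during S phase, and 25 act in G2 and mitosis. A gene was read from the probe set with the highest mean signal among those annotated to it alone, which gave values for 47 of the 48 genes, out of 18193 genes named on the array. No probe set was matched to Ccnb1 here, so all 23 S-phase genes and 24 mitotic genes have values.

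The cells came from dissected long bones of the hind limbs of CD1 mouse embryos at day 15.5, and grew as monolayers of primary cells that were not sorted. Total RNA of 15 cultures was measured on 15 Affymetrix arrays, 3 for each of 5 treatments. The treatments were the vehicle DMSO, the PI3K inhibitor LY294002, the MEK inhibitor U0126 (spelled UO126 in the labels), SB202190 (SB90 in the labels) and the histone deacetylase inhibitor Trichostatin A. SB202190, a known inhibitor of p38 MAP kinase, stands beside U0126 as a MEK/ERK pathway inhibitor in the series description. The sample labels and the methods give a treatment time of 24 h, whereas the series description gives 2 h, and the values below cannot settle which is right. LY294002 was used at 10 µM, and the doses of the other inhibitors are not given in the sources used here. The 3 cultures of a treatment are biological replicates, described in the methods as separate experiments for DMSO and LY294002. All values are log2 signals, so that a difference of 1 is a 2-fold change.

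Before S phase, cells load the MCM helicase onto replication origins with the help of Cdc6 and Cdt1, and cyclin E with Cdk2 starts replication. E2F factors switch on many of these genes once the retinoblastoma protein is phosphorylated. Mitotic genes rise later, in G2, and many are controlled by the DREAM and MMB complexes and FoxM1 through a promoter element called CHR, often beside a CCAAT box. Proliferating chondrocytes of the growth plate divide in columns and leave the cycle before they become hypertrophic, and histone deacetylase inhibitors are known to arrest many cell types in G1 or G2.

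The 2 groups of genes differ in their promoters, which were read in the RefSeq windows of GRCm38.p6 from 250 bases before to 50 bases after the start. A window was found for 39 of the 48 genes, 19 of the S-phase group and 20 of the mitotic group. An E2F motif (TTTCCCGC, TTTGGCGC, TTTCGCGC or TTTGCCGC on either strand) lay in 10 of the 19 S-phase windows (52.6%) and in 1 of the 20 mitotic windows (5.0%), that of Cdk1. It lay in 2.32% of the 27025 windows of all genes. A CHR element (TTTGAA or TTCGAA on either strand) lay in 15 of 20 mitotic windows (75.0%) and 3 of 19 S-phase windows (15.8%), beside 19.4% of all windows. A CCAAT box, in either orientation, lay in 90.0% of the mitotic windows, 68.4% of the S-phase windows and 37.9% of all. All 15 mitotic windows with a CHR element also held a CCAAT box, a pair found in 7.70% of all windows. These letter matches are a description with no test, and they do not show that a factor was bound.

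Stretches of 100 bases are shown for 3 S-phase genes and 3 mitotic genes whose motif lies before the start and that fell under Trichostatin A (below). For the S-phase genes they run from 170 to 71 bases before the start, and for the mitotic genes they end at the base before it. They are given on the strand of the gene, with E2F, CHR and CCAAT matches in capitals. Cdc6 is at chr11:98907981-98908080 (plus strand), Mcm5 at chr8:75109339-75109438 (plus) and Pola1 at chrX:93632226-93632325 (minus). Kif11 is at chr19:37376282-37376381 (plus), Cdc20 at chr4:118437344-118437443 (minus) and Cdk1 at chr10:69352913-69353012 (minus). 
Cdc6: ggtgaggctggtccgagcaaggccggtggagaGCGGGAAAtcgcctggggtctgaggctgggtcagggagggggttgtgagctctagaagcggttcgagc
Mcm5: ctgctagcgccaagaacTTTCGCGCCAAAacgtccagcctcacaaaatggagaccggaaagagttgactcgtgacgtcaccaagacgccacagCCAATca
Pola1: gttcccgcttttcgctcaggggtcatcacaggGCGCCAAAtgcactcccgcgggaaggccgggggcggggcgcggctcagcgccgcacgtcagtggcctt
Kif11: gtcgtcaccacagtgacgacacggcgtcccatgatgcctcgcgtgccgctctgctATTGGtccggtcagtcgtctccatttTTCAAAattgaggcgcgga
Cdc20: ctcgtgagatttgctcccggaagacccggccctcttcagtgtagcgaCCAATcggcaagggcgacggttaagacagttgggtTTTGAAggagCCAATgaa
Cdk1: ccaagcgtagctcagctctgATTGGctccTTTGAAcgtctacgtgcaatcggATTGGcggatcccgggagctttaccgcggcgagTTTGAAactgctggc
In Mcm5 an E2F match on each strand overlaps the other, and in Cdk1 a pair of CHR elements each follows a CCAAT box in the reverse orientation.

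Of the 47 genes, 44 were lower and 1 was higher in Trichostatin A than in DMSO. Over the 15 arrays all 47 passed the filter on low signal, a mean of at least log2 of 50 in either group, and a gene was called at a Benjamini-Hochberg adjusted p under 0.05 in limma. All 24 mitotic genes fell, and so did 20 of the 23 S-phase genes. Trichostatin A moved much of the array: 20.6% of the 34902 probe sets tested were called lower and 23% higher. The median log2 difference was -1.39 over the 47 genes, -1.67 over the mitotic genes and -0.95 over the S-phase genes, beside -0.06 over all probe sets tested. In 33 of the 47 genes the signal was at least 2-fold lower, in contrast to 3.15% of all probe sets, and in 14 it was at least 4-fold lower, beside 0.519% of all. Of the mitotic genes 22 were at least 2-fold lower, and of the S-phase genes 11, a contrast between the groups that was not tested. For each of the 44 genes called lower, the 3 Trichostatin A arrays lay below the 3 DMSO arrays, which the call itself makes likely. The same separation was found in 8773 of the 34902 probe sets tested.

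**Figure D1:**
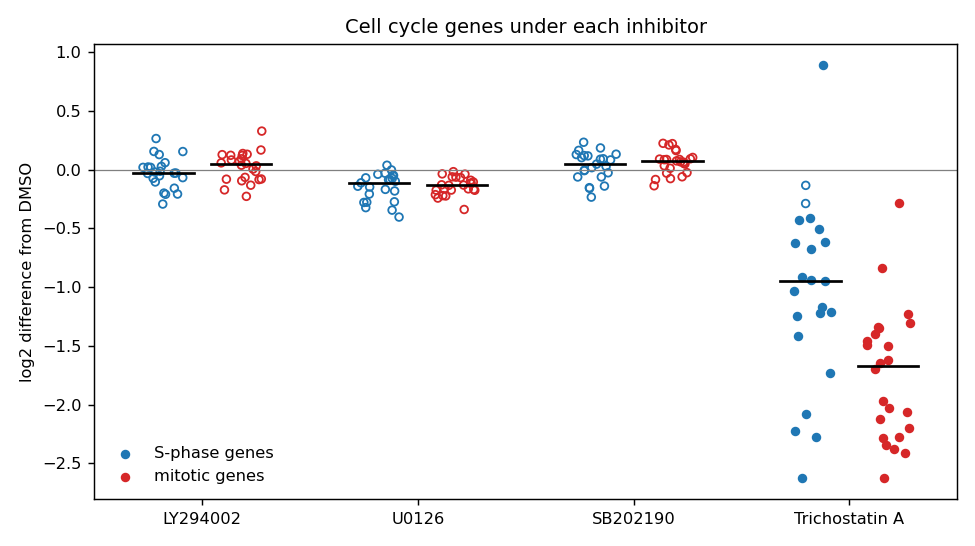
Each point is 1 of 47 genes, placed at its log2 difference from DMSO (vertical axis) under each inhibitor, with S-phase genes in blue and mitotic genes in red. Filled points passed an adjusted p of 0.05 in limma, open points did not, and black lines are group medians. Under Trichostatin A the medians are -0.95 and -1.67, and no point is filled under the other inhibitors.

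RNA of the origin licensing genes was lower throughout: all 8 genes of this step fell, by a median log2 difference of -1.45. Cdc6, which loads the MCM helicase onto origins, read 8.75, 8.09 and 8.19 in DMSO and 5.86, 5.50 and 5.79 in Trichostatin A. This was the largest difference of the 47 genes (log2 difference -2.63, SE 0.18, or 6.17-fold lower, limma adjusted p = 3.72e-09), with a Trichostatin A mean of 5.72, close to the filter level of 5.64. Among the helicase subunits, Mcm3 went from 10.78, 10.45 and 10.45 to 8.25, 8.22 and 8.54, a fall of 4.68-fold. Mcm5 read 11.12, 10.76 and 10.71 in DMSO and 8.93, 8.49 and 8.93 in Trichostatin A, 4.22-fold lower, and Mcm4 fell by 3.33-fold, from 10.97, 10.50 and 10.51 to 9.02, 8.73 and 9.03. The other helicase subunits fell less, with log2 differences of -0.94 for Mcm2, -0.92 for Mcm6 and -0.95 for Mcm7. Cdt1, the partner of Cdc6 in licensing, fell by 1.17 on the log2 scale. These values rest on 1 probe set a gene: other probe sets of Mcm3 lay between -0.22 (limma adjusted p = 0.141) and -2.11, and those of Mcm5 at -0.57 and -2.31.

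Of the genes that supply nucleotides, all 3 fell, of those that start DNA synthesis 3 of 4, and of the clamp and its loader 2 of 3. Rrm2, the regulatory subunit of ribonucleotide reductase, read 12.35, 12.04 and 11.96 in DMSO and 9.97, 9.73 and 9.82 in Trichostatin A, 4.85-fold lower (SE 0.13 on the log2 scale, limma adjusted p = 5.39e-10). Its catalytic partner Rrm1 was 2.31-fold lower, and thymidylate synthase, Tyms, was 1.42-fold lower (limma adjusted p = 0.0117). The other probe sets of Tyms did not pass the signal filter, with log2 differences of -0.20, 0.02 and -0.14. Pola1, the catalytic subunit of DNA polymerase alpha, had a log2 difference of -1.25, and Gins1 and Gins2, parts of the replicative helicase, of -1.03 and -1.22. The sliding clamp gene Pcna was 1.35-fold lower, with 12.68, 12.42 and 12.35 in DMSO and 12.13, 11.90 and 12.14 in Trichostatin A. Rfc3, of the complex that loads the clamp, was 1.53-fold lower. The 2 genes that did not pass were Rfc4, from the same loader (log2 difference -0.29, SE 0.16, limma adjusted p = 0.146), and Prim1, the primase subunit (-0.13, SE 0.11, limma adjusted p = 0.355), and the arrays of both overlapped. A second probe set of Prim1 was at -0.38 with a limma adjusted p of 0.0484.

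**Figure D2:**
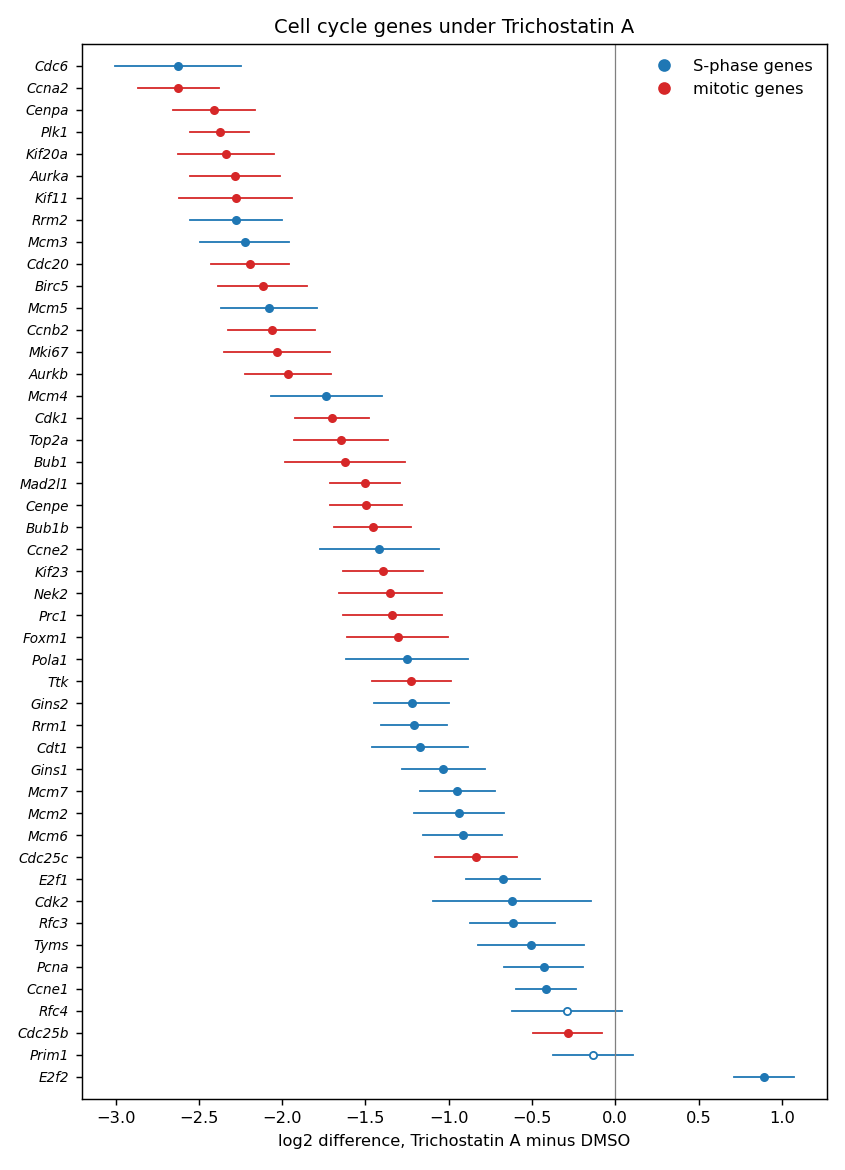
Each row is 1 gene, with its log2 difference between Trichostatin A and DMSO (horizontal axis) and the 95% confidence interval of the limma fit, 3 arrays per group. Blue marks S-phase genes, red marks mitotic genes, and open points (Rfc4 and Prim1) did not pass an adjusted p of 0.05. Cdc6 and Ccna2 lie lowest, at -2.63 and -2.62, and E2f2 is the one gene above 0.

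The regulators that open S phase were split. Cyclin E2, Ccne2, read 9.77, 9.12 and 9.12 in DMSO and 7.79, 7.83 and 8.13 in Trichostatin A, 2.67-fold lower (limma adjusted p = 2.75e-06), whereas cyclin E1, Ccne1, was 1.33-fold lower. Their kinase Cdk2 was 1.54-fold lower with a limma adjusted p of 0.0338, and the transcription factor gene E2f1 was 1.60-fold lower. E2f2, which encodes a close relative of E2f1, went the other way. It read 6.61, 6.60 and 6.59 in DMSO and 7.63, 7.29 and 7.55 in Trichostatin A, so that the 3 Trichostatin A arrays lay above all others (log2 difference 0.89, SE 0.08, 1.86-fold higher, limma adjusted p = 2.05e-07). A second probe set of E2f2 rose by 1.03. Of the 10 S-phase genes with an E2F motif in their window, 9 were lower and E2f2 itself was the one that was higher. This stands beside 20 lower and 1 higher of all 23 S-phase genes, and a part of the motif was not tested.

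**Figure D3:**
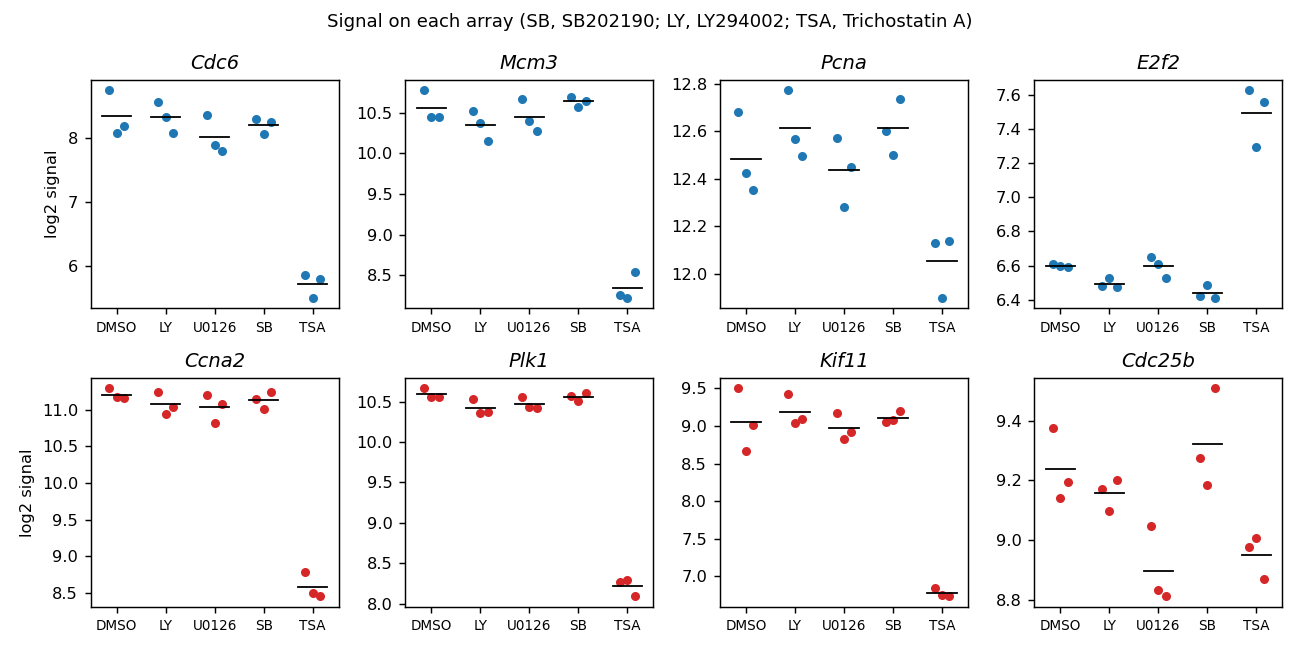
Log2 signal (vertical axis, a range of its own in each panel, not starting at 0) of 8 genes on each of 15 arrays, with 3 points and a black mean line per treatment and S-phase genes in blue. The 3 Trichostatin A points lie below the DMSO points in every panel but that of E2f2, where they lie above. Also below the DMSO points lie the U0126 points of Cdc25b, the LY294002 points of Plk1 and E2f2, and the SB202190 points of E2f2.

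All mitotic genes with a value were lower. Among those that drive entry into mitosis, cyclin A2, Ccna2, went from 11.29, 11.17 and 11.16 to 8.79, 8.50 and 8.45 (log2 difference -2.62, SE 0.11, 6.16-fold lower, limma adjusted p = 2.33e-11). Plk1, a kinase needed for spindle assembly and division, read 10.66, 10.55 and 10.56 in DMSO and 8.27, 8.29 and 8.09 in Trichostatin A, 5.19-fold lower with the smallest limma adjusted p of the 47 genes, 1.50e-12. Aurka, the kinase of the spindle poles, went from 9.84, 9.56 and 9.74 to 7.56, 7.30 and 7.42, 4.87-fold lower. Ccnb2 (cyclin B2) was 4.18-fold lower and its kinase Cdk1 3.25-fold lower. Foxm1, which encodes a transcription factor for genes of this phase, was 2.47-fold lower, and Nek2, a centrosome kinase, was 2.55-fold lower. The phosphatases that activate Cdk1 fell least, Cdc25c by 1.79-fold and Cdc25b by 1.22-fold (limma adjusted p = 0.0263).

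Genes of chromosomes and centromeres all fell, from -1.50 to -2.41 on the log2 scale. Cenpa, the histone variant that marks centromeres, read 10.87, 10.63 and 10.62 in DMSO and 8.53, 8.21 and 8.16 in Trichostatin A, 5.32-fold lower (limma adjusted p = 7.67e-11). The proliferation marker Mki67 was 4.09-fold lower, topoisomerase Top2a 3.13-fold, and Aurkb and Birc5, both of the chromosomal passenger complex, 3.90-fold and 4.34-fold. Genes of the spindle motors fell as well: Kif20a, needed for cytokinesis, had a mean of 9.53 ± 0.16 in DMSO and 7.19 ± 0.17 in Trichostatin A (SD, n = 3), 5.06-fold lower. Kif11, the motor that separates spindle poles, went from 9.50, 8.66 and 9.02 to 6.85, 6.76 and 6.73 (4.85-fold). Kif11 also had the widest spread of the 47 genes among DMSO arrays, with a range of 0.84, which was still less than its difference between treatments. In the spindle checkpoint, Cdc20, the activator of anaphase, was 4.58-fold lower, and Bub1, Bub1b, Mad2l1 and Ttk had log2 differences of -1.62, -1.46, -1.50 and -1.23.

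Of the 45 genes called, other probe sets that passed the filter numbered 43, of which 43 had the sign of the gene's main probe set and 39 were called. The 4 that were not called, with log2 differences much closer to 0, belonged to Mcm3 (-0.22), Pola1 (-0.17), Top2a (-0.11) and Cenpa (-0.13). Leaving out 1 array at a time left 41 to 44 genes lower and 1 higher. The calls that depended on an array were Cdk2, Tyms and Cdc25b: without DMSO replicate 1, Cdk2 was at -0.44 (limma adjusted p = 0.132) and Cdc25b at -0.22 (limma adjusted p = 0.105). Without Trichostatin A replicate 3 the limma adjusted p was 0.0648 for Cdk2, 0.0532 for Tyms and 0.0963 for Cdc25b, without Trichostatin A replicate 2 it was 0.152 for Cdk2, and without DMSO replicate 3 it was 0.0509 for Tyms.

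Other genes of the pathway were counted in the same way. Of 38 other replication genes with a probe set, 23 were lower, 2 higher and 13 not called in Trichostatin A against DMSO, with a median log2 difference of -0.52. Those farthest from DMSO were Tk1 (thymidine kinase) at -3.05, Clspn (claspin, of the replication checkpoint) at -1.98 and Rpa2 (single-strand binding) at -1.67 on the log2 scale. Of 40 other mitotic genes, 38 were lower, 0 higher and 2 not called, with a median of -1.39, led by the motor Kif2c (-2.89), the cohesion factor Cdca5 (-2.50) and Nusap1 of the spindle (-2.41). Genes that control G1 did not go one way: of 27, 9 were higher and 11 lower. Rb1, which encodes the retinoblastoma protein, was higher by 1.99 (limma adjusted p = 3.48e-09), whereas the repressor gene E2f8 was at -1.69 and Lin9, of the DREAM and MMB complexes, at -1.51. These lists, like the 48 genes, were set with earlier results of these data known, and their counts stand beside the 20.6% lower and 23% higher of all probe sets.

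Cell type markers moved under Trichostatin A too. All 15 chondrocyte markers, among them Col2a1, Acan and Sox9, were above a signal of 50, and all 15 were lower with Trichostatin A. Their summed linear signal ranged from 80426 to 85726 over the DMSO arrays and from 38995 to 52644 over the Trichostatin A arrays, and the sums of the other markers follow in the same order. Of 13 skeletal muscle markers tested 11 were lower (2955 to 6445 and 1631 to 1781, Myf5 below a signal of 50 in every treatment). Of 11 macrophage markers tested 8 were lower and 1 higher, with sums of 2128 to 2535 and 2180 to 2357 and with Itgam and Ptprc below 50 throughout. Of 12 fibroblast and perichondrium markers 8 were lower and 3 higher (60766 to 71314 and 49182 to 55759). Of 9 keratinocyte and epithelium markers tested 3 were higher and 1 lower (3034 to 3351 and 6872 to 7442, Cdh1 below 50), of 7 endothelium markers 1 was higher (1073 to 1165 and 1142 to 1235, Pecam1, Cdh5 and Tie1 below 50). Of 3 erythroid markers limma called none, and 0 at an unadjusted p under 0.05 (400.3 to 456 and 349 to 431, Hba-a1 and Hbb-bh1 below 50). The part of these shifts in the fall of the cell cycle genes was not tested. The arrays measured bulk RNA, in which fewer cycling cells and less RNA of these genes per cell cannot be told apart.

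LY294002 left the cell cycle genes close to DMSO. None of the 47 was called in either direction by limma, where 6.83% of 34562 probe sets were called higher and 1.78% lower. At an unadjusted p under 0.05 there were 2 higher (Mcm7 and Mki67) and 1 lower (Ccne1). Of the 34562 probe sets, 5606 were higher and 2722 lower at that threshold. The means of 24 genes were higher and of 23 lower, with a median log2 difference of 0.00, and the largest difference was 1.25-fold. Every one of the 47 confidence intervals (95%) excluded a 2-fold change in either direction.

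The genes farthest from DMSO under LY294002 went in opposite directions. Mki67 read 10.62, 10.27 and 10.27 in DMSO and 10.91, 10.62 and 10.60 in LY294002 (log2 difference 0.33, SE 0.15, limma adjusted p = 0.198). Mcm7 read 11.93, 11.81 and 11.73 in DMSO and 12.26, 11.95 and 12.05 in LY294002 (0.26, SE 0.11, limma adjusted p = 0.135), with all LY294002 arrays above all DMSO arrays. Both were higher in each of the 3 pairs of same-numbered cultures, by 0.29 to 0.35 for Mki67 and 0.14 to 0.33 for Mcm7. With the replicate number as a block both passed, with limma adjusted p values of 0.0157 for Mki67 and 0.0405 for Mcm7. Tyms read 7.06, 7.12 and 7.29 in DMSO and 6.72, 6.90 and 6.97 in LY294002 (-0.29, limma adjusted p = 0.247). Aurka was at -0.23, with 9.84, 9.56 and 9.74 in DMSO and 9.66, 9.36 and 9.43 in LY294002. Tyms and Aurka were lower in each of the 3 pairs, from -0.22 to -0.34 for Tyms and from -0.17 to -0.31 for Aurka. Of the 47 genes, 12 were higher and 12 lower in all 3 pairs, counts not made over all probe sets. All LY294002 arrays lay above all DMSO arrays for 1 gene and below them for 5, Tyms among these. Of 34562 probe sets tested, 4901 lay above and 3290 below in this way. After quantile normalization instead of the block 6 genes were called lower, Ccne1, Cdt1, Mcm3, Cdc20, Plk1 and Aurka. They lay between -0.24 for Cdc20 and -0.34 for Aurka, and none was called higher. No share of all probe sets called stands beside this count or that of the block.

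Other genes of the pathway were set beside the 6.83% higher and 1.78% lower of all probe sets. Among 38 other replication genes 1 was lower in LY294002, Fen1, the flap endonuclease (-0.58, limma adjusted p = 0.0158). Among 40 other mitotic genes limma called none, with 2 higher and 2 lower at an unadjusted p under 0.05. Of 34562 probe sets, 5606 were higher and 2722 lower at that unadjusted threshold. Of 26 G1 control genes tested limma called 5 higher and 0 lower. Those farthest from DMSO were Rbl2 and Rb1, of the retinoblastoma family, at 0.54 and 0.50, and Myc at 0.43, with limma adjusted p values of 0.0276, 0.0282 and 0.0362. Among cell type markers, 4 of 15 for chondrocytes were higher and 0 lower in LY294002, with a summed signal of 104527 to 107645 beside 80426 to 85726 in DMSO. Of 9 keratinocyte and epithelium markers tested 3 were lower and 0 higher, with sums of 2287 to 2606 beside 3034 to 3351. Of 11 macrophage markers 1 was higher, and of 12 fibroblast and perichondrium markers 1 was lower. The part of these markers in the values of the cell cycle genes was not tested.

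U0126 gave small differences, nearly all to the same side. limma called none of the 47 genes, where 1.14% of 34612 probe sets were called higher and 0.792% lower. At an unadjusted p under 0.05, 3 of the 47 genes were lower and 0 higher. Of the 34612 probe sets, 1416 were lower and 1974 higher at that threshold. The means of 46 genes were below DMSO and that of E2f1 was above it by 0.04. The median log2 difference was -0.13, beside 0.00 over all probe sets, and the largest difference was 1.32-fold. In the 3 pairs of same-numbered cultures 42, 43 and 39 of the 47 genes were lower, beside 17464, 18253 and 15236 of 34612 probe sets. In all 3 pairs 32 genes were lower, while 0 were higher in all 3, a count not made over all probe sets. The genes share their arrays, so that this count describes 3 pairs of cultures and not 47 measurements, and all 47 confidence intervals (95%) excluded a 2-fold change.

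**Figure D4:**
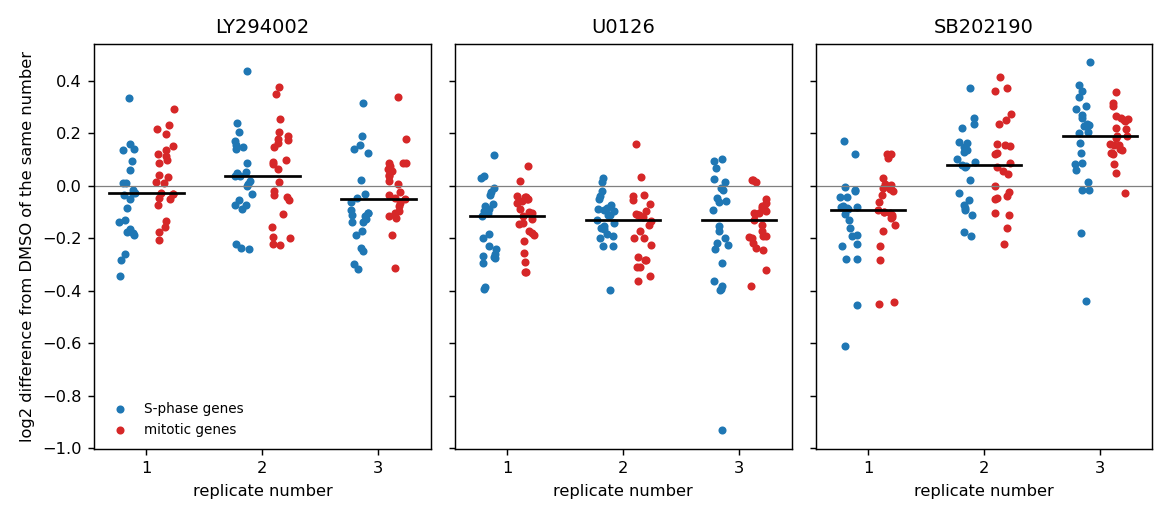
Log2 difference of each of 47 genes from the DMSO culture of the same replicate number (vertical axis), for 3 inhibitors and replicate numbers 1 to 3, with the median as a black line. Under U0126 the medians are -0.11, -0.13 and -0.13, whereas under SB202190 they go from -0.09 in replicate 1 to 0.19 in replicate 3.

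Cdc25b was the gene nearest to the threshold. It read 9.38, 9.14 and 9.19 in DMSO and 9.05, 8.83 and 8.81 in U0126, with all U0126 arrays below all DMSO arrays (log2 difference -0.34, SE 0.10, limma adjusted p = 0.107). It was lower by 0.31 to 0.38 in the 3 pairs of cultures, and passed with the replicate number as a block (limma adjusted p = 0.0381) and after quantile normalization (limma adjusted p = 0.0455). Cdt1, the licensing factor, read 10.33, 10.05 and 9.95 in DMSO and 10.06, 9.65 and 9.59 in U0126 (-0.35, limma adjusted p = 0.340, and 0.0498 after quantile normalization). Tyms was at -0.40 (limma adjusted p = 0.284), but its values of 6.82, 7.08 and 6.36 in U0126 varied more than the difference from its 7.06, 7.12 and 7.29 in DMSO. Nek2 read 9.52, 9.02 and 9.21 in DMSO and 9.23, 8.82 and 8.97 in U0126 (-0.24), with overlapping arrays. Of 38 other replication, 40 other mitotic and 26 G1 control genes tested, limma called none with U0126. At an unadjusted p under 0.05 there were 3, 5 and 2 lower and 0, 0 and 2 higher. Of 34612 probe sets, 1416 were lower and 1974 higher at that threshold. Among cell type markers, 4 of 15 for chondrocytes were higher in U0126, with a summed signal of 103460 to 120478, and 1 of 9 for keratinocytes and epithelium was lower, with sums of 2629 to 2844 beside 3034 to 3351 in DMSO.

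SB202190 gave no called gene among the 47 in limma, where 1.23% of 34539 probe sets were called higher and 0.706% lower. At an unadjusted p under 0.05 there were 0 of the 47 genes, beside 2593 probe sets higher and 1639 lower. The means of 32 genes were higher and of 15 lower than in DMSO, with a median of 0.07, and the largest difference was 1.18-fold, that of Ccne2 (-0.23), which read 9.77, 9.12 and 9.12 in DMSO and 9.16, 8.94 and 9.20 in SB202190. Pola1 read 8.93, 8.49 and 8.32 in DMSO and 8.91, 8.86 and 8.66 in SB202190 (0.23). Among the mitotic genes, Bub1 and Foxm1 lay farthest from DMSO, both at 0.22. Bub1 read 9.80, 9.25 and 9.44 in DMSO and 9.74, 9.62 and 9.80 in SB202190. Foxm1 read 9.26, 8.94 and 9.40 in DMSO and 9.38, 9.30 and 9.58 in SB202190. The arrays of these 4 genes overlapped between the treatments. All 47 confidence intervals (95%) excluded a 2-fold change. Pairs of same-numbered cultures did not point one way: 8 of 47 genes were higher in pair 1, 30 in pair 2 and 42 in pair 3. Of 34539 probe sets, 14963, 16739 and 18560 were higher in these pairs. Of the wider pathway limma called 1 gene, Rbl2, which was higher by 0.61 (limma adjusted p = 0.0346). Of 11 macrophage markers tested 1 was higher, and of 9 keratinocyte and epithelium markers 1 was lower.

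**Figure D5:**
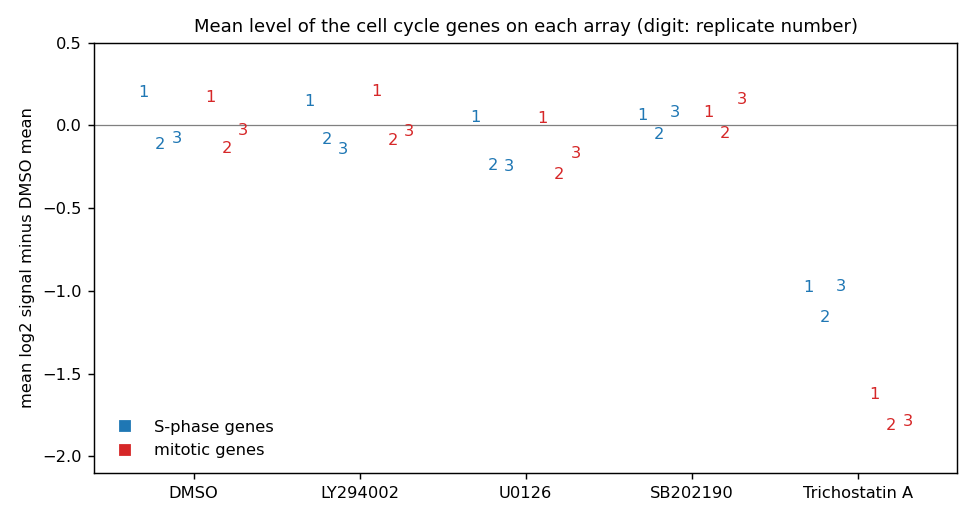
Mean log2 signal of the 23 S-phase genes (blue) and the 24 mitotic genes (red) on each of 15 arrays, less the mean of the 3 DMSO arrays (vertical axis), with the digit giving the replicate number. Replicate 1 lies highest in DMSO, LY294002 and U0126, and the Trichostatin A arrays lie from -0.97 to -1.16 for S-phase genes and from -1.63 to -1.81 for mitotic genes.

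The cultures differed among themselves in these genes. Replicate 1 was the highest array for 43 of 47 genes in DMSO, 42 in LY294002 and 43 in U0126, against 30 in Trichostatin A and 15 in SB202190, where replicate 3 was highest for 31. The mean log2 signal of the 47 genes was 10.15, 9.84 and 9.91 in the 3 DMSO cultures and 8.66, 8.47 and 8.58 in the 3 Trichostatin A cultures.

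Direct comparisons placed Trichostatin A apart from each kinase inhibitor. Between LY294002 and Trichostatin A 42 of 47 genes were called, 41 higher in LY294002, where 40% of probe sets were called. Between U0126 and Trichostatin A 42 were called, 41 higher in U0126, where 42.6% of probe sets were called, and between SB202190 and Trichostatin A 43 were called, 42 higher in SB202190, where 38.3% were called. The gene called in the opposite direction was E2f2 in each comparison, with log2 differences between -0.90 and -1.05. The comparisons share the Trichostatin A arrays. Rfc4, Prim1 and Tyms were called in none of them, Cdk2 was called against LY294002 only, and Ccne1 was not called against LY294002 (0.22, limma adjusted p = 0.0537). Cdc25b was at 0.21 between LY294002 and Trichostatin A and at -0.05 between U0126 and Trichostatin A, and neither passed.

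Between the kinase inhibitors few genes differed. Cdc25b was lower in U0126 than in SB202190, with 9.05, 8.83 and 8.81 against 9.27, 9.19 and 9.51 (log2 difference -0.43, SE 0.10, 1.34-fold, limma adjusted p = 0.0153), as the sole gene of 47 to pass where 5.22% of 34492 probe sets did. Without U0126 replicate 2, U0126 replicate 3 or SB202190 replicate 3 it did not pass (limma adjusted p = 0.0690, 0.0866 and 0.0929). A further 10 genes were lower in U0126 at an unadjusted p under 0.05, and with the replicate number as a block 11 genes were called, all lower in U0126. These were Mcm4, Gins1, Gins2, Pola1 and Rfc4 of the S-phase group and Mki67, Cdc25b, Bub1, Ttk, Nek2 and Birc5 of the mitotic group, between -0.27 for Gins2 and -0.45 for Bub1. Between LY294002 and U0126 limma called none, where 5.64% of probe sets were called. At an unadjusted p under 0.05 limma put 7 of 47 genes higher in LY294002 and 0 lower. At that threshold it put 4470 of 34496 probe sets higher and 2503 lower. With the replicate block it called 4, Ccne2, Mcm7, Mki67 and Nek2, of which Mki67 was highest at 0.46 (limma adjusted p = 0.00222), and without U0126 replicate 1 it called Mki67 alone. Between LY294002 and SB202190 limma called none, where 4.6% of probe sets were called. At an unadjusted p under 0.05, 1 gene was higher and 3 were lower in LY294002. At that threshold 3618 of 34341 probe sets were higher and 1827 lower. After quantile normalization limma called Mcm3 and Rrm1 lower in LY294002. In each of these 3 comparisons all 47 confidence intervals (95%) excluded a 2-fold difference. The shares of probe sets called are those of the fit without a block on the values as deposited. None stands beside the counts under the block or after quantile normalization.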

How the data were processed

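The authors deposited 1 table of log2 signals, 1 per probe set and array, already normalized between arrays. Whether GC-RMA or RMA made it is not settled. Its 64 control probe sets were dropped from the 45101. Gene symbols came from the platform annotation, and an update through a RefSeq table changed 0 of them.

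Treatment means were estimated over the 15 arrays together with limma 3.58.1 (R 4.3.3), which left 10 residual degrees of freedom, and the variances were moderated by empirical Bayes. Probe sets with a mean of at least log2 of 50 in either group were tested, and p values were adjusted by Benjamini-Hochberg over them. The script was tested on simulated data.

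The 48 genes, the other lists and the motifs were chosen with earlier results of these data known. Genes given by array were, per group and comparison with DMSO, the 6 called with the largest difference, or the 2 largest where none was called (Kif20a by mean and SD). E2f2, Pcna and genes of the direct comparisons were added after their values were seen.

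Deviations of same-numbered arrays from their treatment means correlated by 0.769, 0.405 and 0.627 for LY294002 and DMSO, 0.718, 0.540 and 0.328 for U0126, 0.237, 0.302 and 0.325 for SB202190, and 0.239, 0.474 and 0.0284 for Trichostatin A. Between kinase inhibitors they lay between 0.220 and 0.681. The labels do not state that same-numbered arrays are pairs, and these correlations alone cannot show it. They were lowest for Trichostatin A in replicate 3, at 0.0284 with DMSO and -0.111 with LY294002. The main fit used no pairing, and the replicate number as a block was an alternative.

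Alternatives were the replicate number as a block, other arrays in the fit, other filters, quantile normalization, median centring, another variance prior, the mean of a gene's probe sets and leaving out each array. The number of arrays limits the precision.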

Additional observations from a re-analysis of the deposited data

How the results depend on the processing

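The counts against Trichostatin A stayed within 1.5 times of their value in every alternative run: leaving out 1 array gave 41 to 44 genes lower and 1 higher than DMSO, and 41 to 42, 41 to 43 and 43 to 44 genes called against LY294002, U0126 and SB202190. Quantile normalization or median centring moved the median difference of all probe sets by under 0.1. With the replicate block (a paired fit) 2 genes were higher in LY294002 and 1 lower in U0126 than in DMSO, 4 were called between LY294002 and U0126, and 11 between U0126 and SB202190. The block changed no other count by over 1.5 times. With quantile normalization 6 genes were lower in LY294002 and 2 lower in U0126 than in DMSO, and 2 were called between LY294002 and SB202190. Which genes were called under LY294002 thus depended on the setting. Mki67 and Mcm7 passed as higher under the block, and 6 other genes as lower after quantile normalization. Each of these genes had the same sign in the main fit. Leaving out 1 array gave 0 to 1 genes called between LY294002 and U0126 and 0 to 2 between U0126 and SB202190. The cause of these changes was not tested, and the share of all probe sets called in these runs is not given here. With 3 arrays per group, the median SE of the 47 genes' log2 differences was 0.12, which limits what could be called.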
